A study of Mus musculus with 9 samples.

Results

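The alpha-arrestin genes described here as members were Arrdc1, Arrdc2, Arrdc3, Arrdc4 and Txnip. They were chosen by gene symbol, with the level of Arrdc3 in these arrays already known, and each of the 5 genes, of 21130 with a symbol of their own, was read by 1 of the 22206 probe sets on the sheet. Labelled liver RNA was hybridized to 9 mouse Clariom S arrays, which report 1 log2 signal per probe set. All 3 groups were male C57BL/6JHamSlc-ob/ob mice, which lack functional leptin, overeat and become obese. The mice were 6 weeks old at purchase and were acclimatized for 1 week. For 42 days they received by gavage either vehicle or the rice bean extract VE (Vigna umbellata) at 50 mg/kg (VE50) or at 100 mg/kg (VE100). Each group had 3 arrays. The labels do not state that each array came from a separate animal, so the spread between arrays may in part be technical. Wild-type mice were not analysed here, and every difference below is therefore between ob/ob mice.

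Alpha-arrestins are adaptor proteins with an arrestin fold and short proline-tyrosine motifs. The motifs bind ubiquitin ligases of the NEDD4 family, and the adaptor brings the ligase to a receptor or transporter that is then taken into the cell. Txnip binds reduced thioredoxin and limits glucose uptake, and in liver its gene is switched on by glucose through the factors ChREBP and MondoA. Arrdc3 acts on integrin beta-4, mice without it are lean, and in mouse liver it has been described as a FOXO1-regulated gene that acts on the insulin receptor. Arrdc4 is the closest relative of Txnip in sequence and in its response to glucose, Arrdc1 drives budding of vesicles from the plasma membrane with Tsg101, and Arrdc2 is the least studied of the family.

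The upstream sequence of Txnip is shown because it holds the glucose-response element for which the gene is known, and those of Arrdc3 and Arrdc4 are shown for comparison. Each is the 250 bases before the annotated start in RefSeq, build GRCm38.p6, written 5′ to 3′ on the gene's strand. Promoter windows were found for all 5 genes. Capitals mark matches to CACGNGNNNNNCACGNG (a carbohydrate-response-element-like pair), GTAAACA (a FOXO-type forkhead site) or CACGTG (an E-box), searched on both strands. Txnip lies on chromosome 3 at chr3:96557707-96557956, plus strand. Arrdc3 lies on chromosome 13 at chr13:80883134-80883383, plus strand, and this is the first of 3 annotated starts. Arrdc4 lies on chromosome 7 at chr7:68749239-68749488, minus strand.
Txnip: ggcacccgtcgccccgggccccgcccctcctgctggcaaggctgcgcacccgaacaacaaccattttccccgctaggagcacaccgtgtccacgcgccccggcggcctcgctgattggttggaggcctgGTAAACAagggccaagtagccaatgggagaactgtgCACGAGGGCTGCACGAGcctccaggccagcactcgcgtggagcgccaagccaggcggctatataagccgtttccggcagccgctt
Arrdc3: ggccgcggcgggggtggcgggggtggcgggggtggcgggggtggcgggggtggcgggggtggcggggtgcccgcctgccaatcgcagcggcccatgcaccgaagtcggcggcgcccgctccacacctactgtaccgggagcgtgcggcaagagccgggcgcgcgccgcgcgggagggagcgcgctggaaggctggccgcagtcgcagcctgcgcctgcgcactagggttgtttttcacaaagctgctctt
Arrdc4: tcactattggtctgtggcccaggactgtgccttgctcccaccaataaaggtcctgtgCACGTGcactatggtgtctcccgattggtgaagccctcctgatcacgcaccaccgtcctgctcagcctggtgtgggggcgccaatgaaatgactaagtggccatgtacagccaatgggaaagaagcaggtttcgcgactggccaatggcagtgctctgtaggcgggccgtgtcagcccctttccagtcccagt

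The paired element of Txnip reads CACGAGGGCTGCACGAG and begins 85 bases before the start. That pattern occurs in 15 of 32851 mouse promoter windows of this length (0.0457%). Among the members, Txnip alone held it. Txnip also held GTAAACA at 121 bases before the start, a motif of 3.17% of windows, and Arrdc4 held CACGTG at 193 bases, a motif of 6.02% of windows. None of these patterns was found in the windows of Arrdc3, Arrdc2 or Arrdc1. The glucocorticoid receptor core motif AGAACA, present in 16.1% of windows, was in none of the members' windows. CCAAT, present in 33.8% of windows, occurred 6 times in Arrdc4, 3 times in Arrdc2, 2 times in Txnip and 1 time in the Arrdc3 window shown.

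Background was set for each array at the 95th percentile of its 5222 negative controls, and 14.3% to 20.2% of probe sets exceeded it. Arrdc3 and Txnip were above it on 9 of 9 arrays, and Arrdc4, Arrdc2 and Arrdc1 on 0 of 9. Array vehicle 3 stood apart from the rest, with correlations to the other arrays of 0.948 to 0.967 over all probe sets. On any array, 8 of 8 measured hepatocyte genes were above the negative controls, and no lymphocyte, neutrophil, striated muscle or exocrine pancreas marker was. So were 5 of 8 liver endothelium markers, 3 of 8 stellate cell and fibroblast markers and 2 of 8 Kupffer cell and macrophage markers. Of the cholangiocyte and the adipocyte markers, 1 of 6 each was above them.

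Arrdc3 was lower in the liver of mice given the extract than in vehicle mice at both doses. Its log2 signal was 12.21, 11.85 and 13.11 on the vehicle arrays. It was 11.34, 11.36 and 10.08 on the VE50 arrays. It was 10.77, 11.60 and 8.80 on the VE100 arrays. Every VE50 and every VE100 array lay below every vehicle array, and the arrays of the doses overlapped each other. The highest value was on vehicle 3, the array that stood apart, and the lowest was on VE100 3. On VE100 3 it was only just above background, at 9.76 against 9.35 in the deposited value table. That is the 96.0th percentile of the array's negative controls.

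The group means of Arrdc3 were 12.39 ± 0.65 for vehicle, 10.93 ± 0.73 for VE50 and 10.39 ± 1.44 for VE100 (log2 signal, SD, n = 3). The log2 difference from vehicle was -1.46 ± 0.65 (SE; 95% interval -2.91 to -0.02) for VE50, a level 2.76-fold lower, and -2.0 ± 0.65 (-3.44 to -0.56) for VE100, a level 4-fold lower. Because the family was chosen with these differences known, they are a description and carry no test. Neither passed the Benjamini-Hochberg adjustment of limma over all probe sets, with adjusted p of 0.812 for VE50 and 0.426 for VE100. No probe set of the sheet passed it in either comparison, with the smallest adjusted p at 0.794 and 0.0868, while 1358 and 2105 had an unadjusted p under 0.05. That count rested on vehicle 3: without it, 10 probe sets passed the limma adjustment at VE50 and 434 at VE100, with smallest adjusted p of 0.0122 and 0.00311. At VE100, 125 passed with array weights and 1 in the deposited value table. Arrdc3 was not among them in any of these fits, with adjusted p of 0.515 at VE50 and 0.230 at VE100 without vehicle 3. In size, the Arrdc3 difference was the 20th lowest of 22206 at VE50 and the 16th lowest at VE100. VE100 and VE50 differed by -0.54 ± 0.65 (-1.98 to 0.91), which is within the spread between arrays. In the limma F-test over the 3 groups its adjusted p was 0.763, and 6.54% of all probe sets had an unadjusted p under 0.05.

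**Figure D1:**
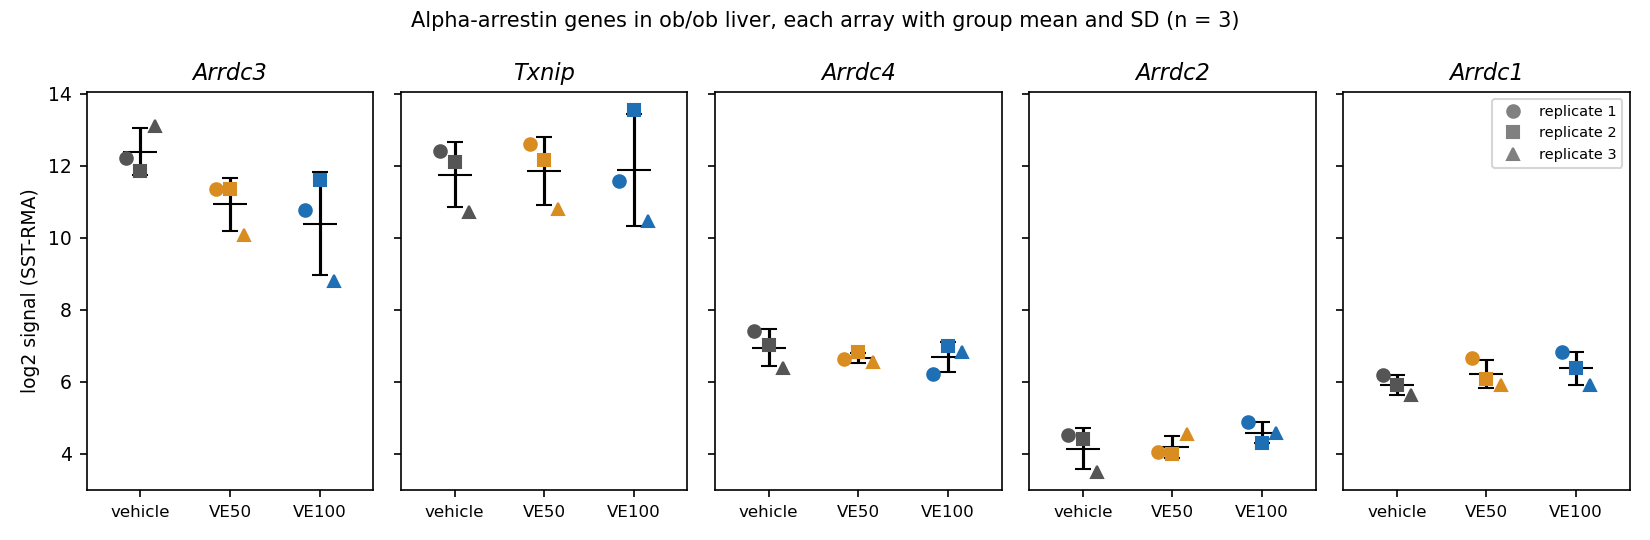
Log2 signal of the 5 alpha-arrestin genes on each array, by group. Points are arrays with a shape for each replicate number, and bars are the group mean and SD (n = 3); the Arrdc3 points of VE50 and VE100 all lie below the vehicle points, and those of Txnip overlap in all 3 groups.

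By the study's criterion, an unadjusted p under 0.05 with a linear fold over 1.1, 1 of the 5 members passed at VE50 and the same 1, Arrdc3, at VE100. The criterion was met by 6.12% of all probe sets at VE50 and 9.48% at VE100, and by 2.8% and 4.37% in the lower direction. Vehicle arrays all above treated arrays, as for Arrdc3, occurred in 4.69% of probe sets at VE50 and 6.08% at VE100. Between the doses 0 of the 5 members passed (limma), against 2.91% of all probe sets. In the authors' deposited table of filtered genes, 1815 probe sets at 100 mg/kg against vehicle, Arrdc3 was the 1 member listed, with a fold of -3.18, a p of 0.0055 and an FDR of 0.4851. The authors' deposited table of group averages gave Arrdc3 12.27 for vehicle, 11.35 for 50 mg/kg and 10.6 for 100 mg/kg. These are not the means of the arrays, which were 12.39, 10.93 and 10.39. How the authors' averages were formed was not examined, and their fold is therefore not the same measure as the 4-fold given above.

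The Arrdc3 difference depended on single arrays. Without vehicle 3 it was -1.10 at VE50, no longer past the criterion, and -1.64 at VE100, still past it; without that array 13.5% of all probe sets met the criterion at VE50 and 16.6% at VE100, 7.52% and 9.62% in the lower direction. The VE50 difference also lost the criterion without vehicle 1 (-1.55), VE50 1 (-1.67), VE50 2 (-1.68), VE50 3 (-1.04) or VE100 1 (-1.46). Without VE100 3 the VE100 difference was -1.21 and still past the criterion, and the sign between the doses turned to 0.26. Of 18 alternative settings, 11 took the VE50 difference out of the criterion and 1 did so for VE100.

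**Figure D2:**
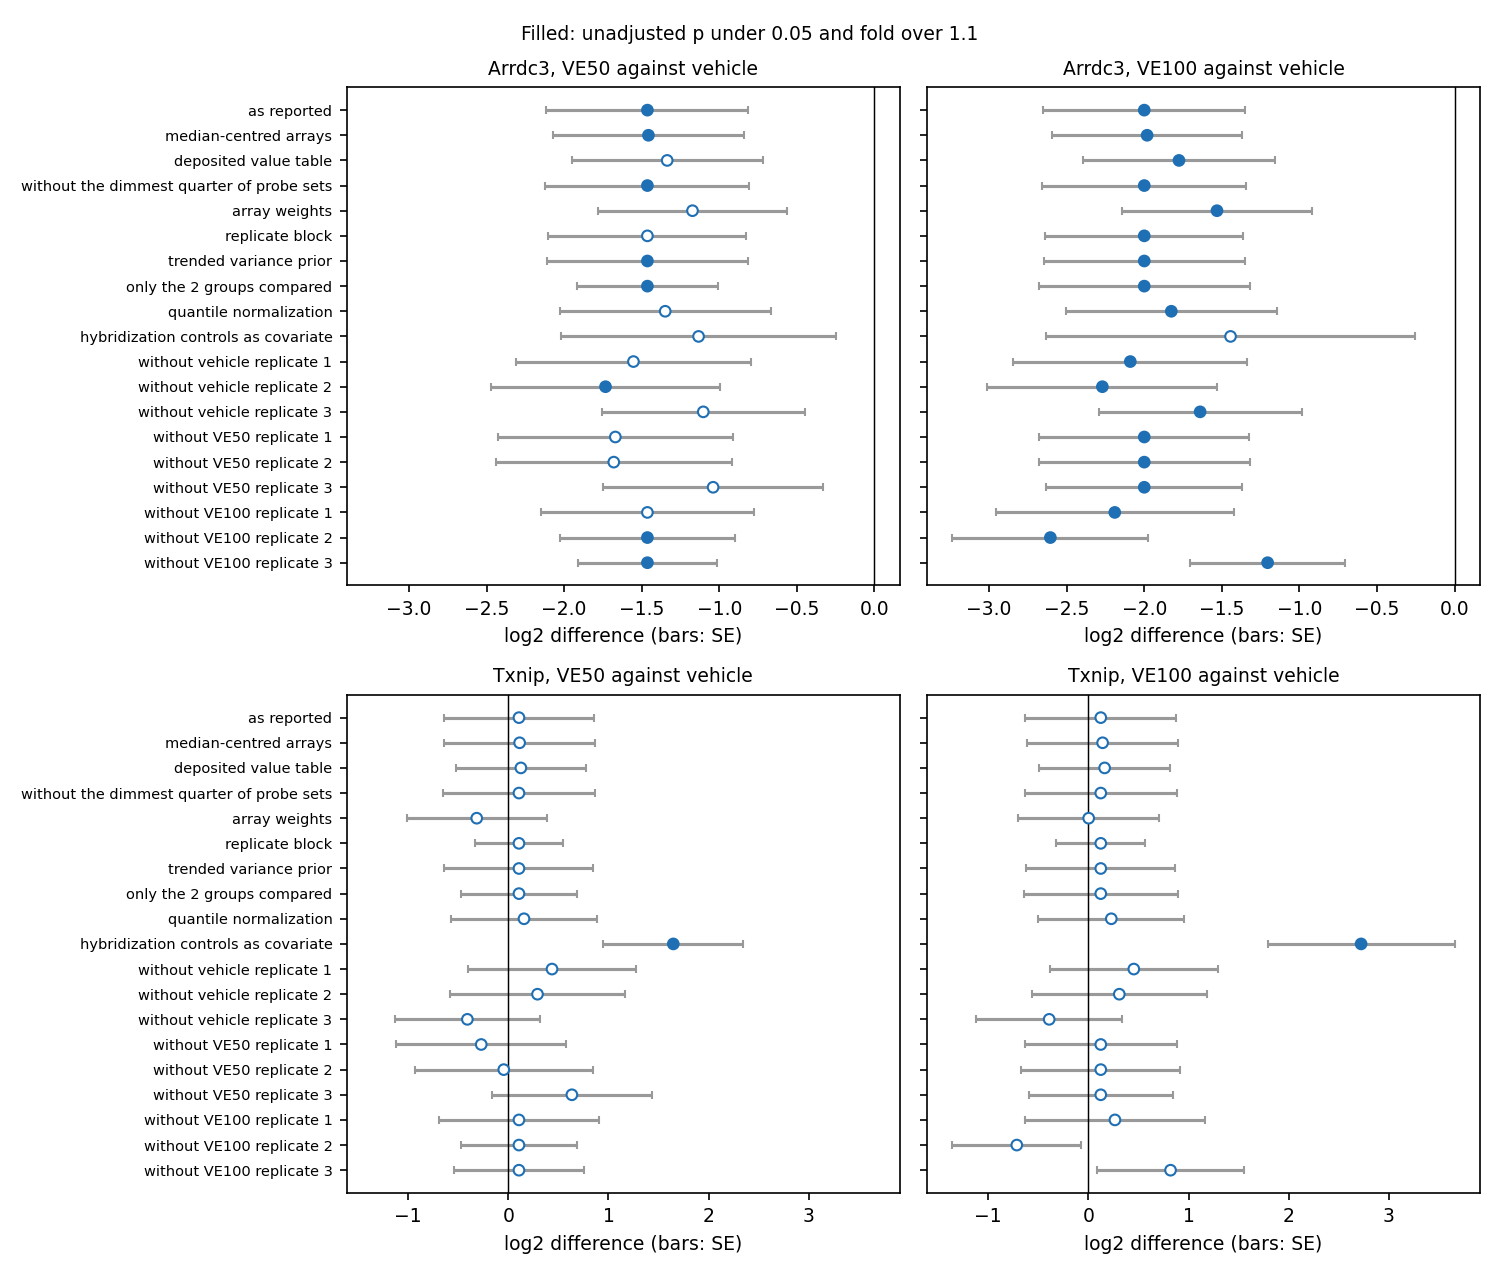
Log2 differences of Arrdc3 and Txnip from vehicle under the reported fit and each alternative setting (x axis, bars are SE; filled points met the unadjusted criterion). Every Arrdc3 value lies below 0, from -1.73 to -1.04 at VE50 and from -2.61 to -1.21 at VE100, while the Txnip values lie on both sides of 0.

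Some measures of the arrays also differed between vehicle and VE100. The mean log2 signal of the 4 hybridization control probe sets, which are added in the same amount to every sample, was 10.73 to 11.01 in vehicle, 10.93 to 11.27 in VE50 and 11.15 to 11.44 in VE100, so that vehicle and VE100 did not overlap. Its correlation with Arrdc3 over the 9 arrays was -0.66, given as a description. With it as a covariate the Arrdc3 difference was -1.13 ± 0.89 at VE50 and -1.44 ± 1.19 at VE100, and neither met the criterion. The summed level of the Kupffer cell and macrophage markers was 10.46 to 11.10 in vehicle, 9.63 to 11.17 in VE50 and 8.82 to 9.98 in VE100 (log2). Of these 8 markers, 2 were above the negative controls on any array, and the defining genes Clec4f, Adgre1, Vsig4, Cd68, Marco and Timd4 were not. The part of these measures in the Arrdc3 result was not tested. The hybridization controls differed with the dose, so the fit with that covariate cannot separate them from it. The macrophage markers were not used as a covariate. In whole liver, fewer cells of a type and less RNA per cell cannot be told apart.

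Txnip, the thioredoxin-binding member, did not differ from vehicle beyond its spread at either dose. Its log2 signal was 12.40, 12.11 and 10.71 on the vehicle arrays. It was 12.60, 12.15 and 10.79 on the VE50 arrays and 11.58, 13.54 and 10.47 on the VE100 arrays. The groups overlapped, and the array numbered 3 was the lowest in each of them.

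The group means of Txnip were 11.74 ± 0.90, 11.85 ± 0.94 and 11.86 ± 1.55 for vehicle, VE50 and VE100 (SD, n = 3). The log2 difference from vehicle was 0.11 ± 0.75 at VE50 (95% interval -1.56 to 1.78, limma adjusted p = 0.988) and 0.12 ± 0.75 at VE100 (-1.55 to 1.79, limma adjusted p = 0.971). VE100 less VE50 was 0.02 ± 0.75 (-1.65 to 1.69). These intervals hold changes of over 1 log2 unit in either direction, so a change of that size was not detectable with 3 arrays a group. Without vehicle 3 the differences were -0.41 at VE50 and -0.39 at VE100. With the hybridization controls as a covariate they were 1.65 ± 0.70 and 2.72 ± 0.93, both past the unadjusted criterion, with limma adjusted p of 0.778 and 0.806. Its correlation with those controls over the 9 arrays was -0.39. In the authors' deposited table Txnip averaged 12.24, 12.08 and 11.76, with an F-test p of 0.9774 over conditions that the table does not name. Those averages fall with dose, and the means of the arrays, 11.74, 11.85 and 11.86, do not.

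Both bright members varied between arrays of the same group more than nearly all other probe sets. The within-group SD was 1.0 for Arrdc3 and 1.17 for Txnip, above those of 97.9% and 98.8% of probe sets, beside a median of 0.35 over all of them. Only 14.3% to 20.2% of those probe sets exceeded background on an array. No rank among bright genes alone was made, so the spread is not called unusual for them. On the linear scale the highest array of Arrdc3 exceeded the lowest by 2.39-fold within vehicle, 2.43-fold within VE50 and 6.96-fold within VE100. For Txnip the same ratios were 3.23-fold, 3.51-fold and 8.4-fold. For each gene the widest range was thus in VE100. For Arrdc3 that range rests on VE100 3, which lay near background, so its size is uncertain.

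Within the extract groups the arrays of Arrdc3 and Txnip fell in much the same order. VE100 3 and VE50 3 were the lowest 2 of the 9 arrays for Arrdc3, and both were under 10.80 for Txnip. VE100 2 was the highest array for Txnip, at 13.54, and the highest VE100 array for Arrdc3. Vehicle 3 broke the order, with the highest Arrdc3 signal and a Txnip signal of 10.71. Over the 9 arrays Pearson's r was 0.39 (exact permutation p = 0.298, two-sided) and Spearman's rho was 0.32 (exact permutation p = 0.410), the 1 relation between members that was tested. Leaving out VE100 3 and vehicle 3, the arrays farthest from the Arrdc3 median, gave r = 0.72 over 7 arrays. Leaving out instead the 2 arrays farthest from the Txnip median gave r = 0.046, so the relation rests on which arrays are kept. For deviations from the group means r was 0.62 over the 9 arrays, 0.74 without the 2 farthest by Arrdc3 and 0.069 without the 2 farthest by Txnip. Over the 8 arrays without vehicle 3, r was 0.83 and rho 0.69, a value chosen after that array was seen to stand apart. Over the 9 arrays, r with the dim members was also computed, without a test, and some values were larger in size than 0.39. For Arrdc3 it was -0.62 with Arrdc2, 0.14 with Arrdc4 and -0.10 with Arrdc1. For Txnip it was 0.54 with Arrdc1, 0.49 with Arrdc4 and 0.001 with Arrdc2.

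**Figure D3:**
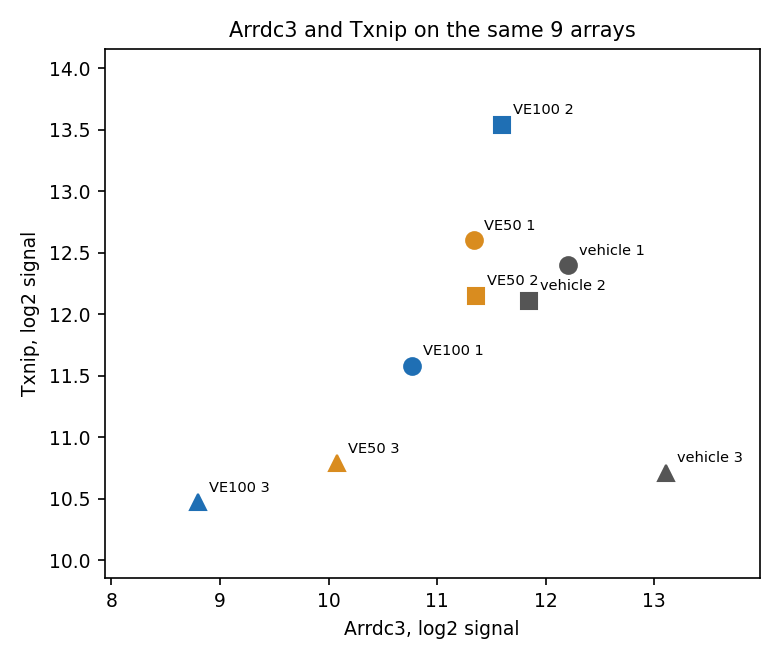
Log2 signal of Arrdc3 (x axis) against that of Txnip (y axis) on the same 9 arrays, with colour for the group and shape for the replicate number. The 6 extract arrays run from VE100 3 (8.80 and 10.47) to VE100 2 (11.60 and 13.54), and vehicle 3 lies at 13.11 and 10.71, away from that order.

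The remaining members, Arrdc4, Arrdc2 and Arrdc1, did not exceed the negative controls on any array, so no fold is given for them. Arrdc4, the relative of Txnip, read 7.40, 7.03 and 6.39 in vehicle, 6.62, 6.81 and 6.54 in VE50, and 6.21, 7.0 and 6.83 in VE100. Arrdc2 read 4.52, 4.41 and 3.49 in vehicle, 4.06, 3.98 and 4.54 in VE50, and 4.87, 4.30 and 4.58 in VE100. Arrdc1, the vesicle-budding member, read 6.19, 5.92 and 5.64 in vehicle, 6.65, 6.07 and 5.91 in VE50, and 6.83, 6.38 and 5.91 in VE100. For each of these genes the 3 groups overlapped. Among the negative controls of the same array, the Arrdc4 signal stood at the 75.1st to 91.7th percentile, that of Arrdc1 at the 59.0th to 79.7th and that of Arrdc2 at the 6.5th to 33.2nd. Their within-group SDs of 0.39, 0.41 and 0.38 (Arrdc4, Arrdc2, Arrdc1) lay near the median of all probe sets. In the deposited value table of the same arrays, Arrdc1 and Arrdc2 also met the unadjusted criterion at VE100 in the higher direction, both still below the negative controls.

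The genes that surround alpha-arrestins were described from 8 lists with 120 measured genes. At VE50, 13 of them met the criterion (10.8%, against 6.12% of all probe sets), 9 higher and 4 lower. At VE100, 23 met it (19.2%, against 9.48%), 11 higher and 12 lower, and between the doses 7 did (5.83%, against 2.91%). None passed the limma adjustment over all probe sets as reported. At VE100, 12 did without vehicle 3 and 6 with array weights, where 434 and 125 of all probe sets did. The median log2 difference of all probe sets was -0.01 in both comparisons with vehicle. The lists were chosen with earlier results of these data known, and nothing is called particular to them. Both comparisons share the vehicle arrays, and without vehicle 3 the counts were 26 at VE50, 36 at VE100 and 13 between the doses. Of all probe sets, 13.5% then met the criterion at VE50 and 16.6% at VE100, 7.52% and 9.62% in the lower direction. These shares also stand beside the counts of each list without vehicle 3 below. No such share is given between the doses. No share of all probe sets in the higher direction alone is given, so counts of higher genes have only the share in either direction beside them. Where a gene was below the negative controls in a group, its difference is one of signals and does not measure a fold.

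In the reported fit, no gene of the arrestin fold list or of the NEDD4-family list met the criterion. The shares of all probe sets that met it were 6.12% at VE50 and 9.48% at VE100. Of the arrestin fold list, 0 of 8 measured genes passed at either dose, with median differences of -0.15 and -0.25. Its genes with the smallest p were Arr3, the cone arrestin, at 0.27 (VE50), and Arrb1, the beta-arrestin 1 gene, at -0.50 (VE100), both dim on all arrays. Arrdc5, which shares the Arrdc name but was not among the members, was below the negative controls throughout, between 3.42 and 4.64. Of the NEDD4-family ligases and adaptors, 0 of 11 passed at either dose, with medians of -0.02 and -0.06. The ligase Nedd4l read 9.44, 9.32 and 9.17 in vehicle and 10.64, 10.11 and 9.66 in VE100, a difference of 0.83 ± 0.37 without overlap that missed the criterion (limma adjusted p = 0.530). Nedd4l did meet the criterion under 8 of 18 alternatives. These were the fits without VE50 1 (0.83), VE50 3 (0.83) or VE100 3 (1.07), and those with median-centred arrays (0.85), the value table (0.79), the replicate block (0.83), the 2 groups alone (0.83) or the hybridization controls (1.54). Wwp2 had the smallest p at VE50, with -0.27. Without vehicle 3, 2 genes of the arrestin fold list were past the criterion in the lower direction at each dose, Arr3 was at -0.062, and 1 gene of the ligase list was past it in the lower direction at VE100. Arrb1 was past it without VE100 1 (-0.77), in the value table (-1.06) and with array weights (-0.58).

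Among 17 cargo proteins and ESCRT partners, 1 rose and 2 fell by the criterion at VE50, and 0 rose and 2 fell at VE100, with medians of -0.17 and -0.01. In either direction that was 17.6% at VE50 and 11.8% at VE100, against 6.12% and 9.48% of all probe sets. Vps4b, an ATPase that recycles ESCRT complexes, fell by 0.67 ± 0.25 at VE50 and by 0.72 ± 0.25 at VE100. Tsg101, the ESCRT protein that Arrdc1 binds, read 12.64, 12.01 and 10.23 in vehicle and 10.07, 10.61 and 10.33 in VE100, a difference of -1.29 ± 0.51. Vehicle 3 lay inside the VE100 range for Tsg101, and without that array the difference was -1.99. The Vps4b call at VE50 was lost without vehicle 3 (-0.50), VE50 2 (-0.55) or VE50 3 (-0.58), and with the value table (-0.53) or the hybridization controls (-0.61). At VE100 the value table (-0.57) and the hybridization controls (-0.61) removed it. The Tsg101 call was lost without vehicle 1 (-0.78), vehicle 2 (-1.10), VE100 1 (-1.16) or VE100 3 (-1.29), and with the 2 groups alone (-1.29) or the hybridization controls (0.072). The dim genes Notch1 (-0.58 ± 0.20) and Stam (0.59 ± 0.26) were past the criterion at VE50, and Notch1 lost it in the value table (-0.62) and with the hybridization controls (-0.59), while Stam lost it under 12 of 18 alternatives, among them the fits without any array except vehicle 3 and VE50 3, at 0.42 to 0.59. Without vehicle 3, 6 of the 17 genes were past the criterion in the lower direction at each dose. Of all probe sets, 7.52% at VE50 and 9.62% at VE100 then were.

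The thioredoxin system, the binding partner of Txnip, had 1 gene higher and 0 lower of 17 measured at VE50 and 0 higher and 1 lower at VE100, with medians of 0.08 and 0.04. In either direction that was 5.88% at each dose, against 6.12% of all probe sets at VE50 and 9.48% at VE100. Prdx5, a peroxiredoxin, rose by 0.65 ± 0.26 at VE50. Msra, which repairs oxidized methionine with thioredoxin as its reductant, fell by 1.22 ± 0.40 at VE100. The Prdx5 call was lost without vehicle 1 (0.57), vehicle 2 (0.54) or VE50 1 (0.41), and with the 2 groups alone (0.65) or the hybridization controls (0.68). The Msra call was lost without VE100 1 (-0.98) and turned to 0.15 with the hybridization controls. Without vehicle 3 the list counted 1 higher and 2 lower at VE50 and 1 higher and 3 lower at VE100. Thioredoxin itself, Txn1, lay between 14.94 and 15.68 on all arrays, with a VE100 difference of -0.07 ± 0.28. Of the NLRP3 inflammasome genes, to which Txnip has been linked, 0 of 7 passed at VE50, where Casp1 had the smallest p at 0.74. At VE100 1 passed, Nek7, a kinase that binds NLRP3, which fell by 0.66 ± 0.25. This 1 gene was 14.3% of the list, against 9.48% of all probe sets. Casp1 was past the criterion without VE50 3 (1.27), and Nek7 was not without vehicle 2 (-0.62) or VE100 1 (-0.45), in the value table (-0.52) or with the hybridization controls (-0.34). Casp1 was also past it with the hybridization controls (1.47). Without vehicle 3 the counts at VE100 were 1 higher and 1 lower.

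The Mondo and MLX factors with their glucose-responsive genes, the class to which Txnip and Arrdc4 belong, had 1 of 25 higher and 1 lower at VE50, and 1 higher and 6 lower at VE100. The medians were 0.00 and -0.26. In either direction 8% of the list met the criterion at VE50 and 28% at VE100, against 6.12% and 9.48% of all probe sets. Ppp1r3b, which targets a phosphatase to glycogen, read 11.24, 11.89 and 11.39 in vehicle, 12.54, 12.67 and 12.24 in VE50, and 12.93, 12.88 and 13.22 in VE100. It rose by 0.98 ± 0.24 and 1.5 ± 0.24, opposite to the list's lower members. Gpd1, a glycerol phosphate dehydrogenase named after its value was seen, fell by 0.92 ± 0.36 at VE50. At VE100 the liver pyruvate kinase Pklr fell by 1.09 ± 0.29, the acetyl-CoA carboxylase Acaca fell by 1.26 ± 0.40 and the ATP citrate lyase Acly fell by 1.29 ± 0.44. With the hybridization controls as a covariate these 3 differences were -0.37, -0.54 and -0.46 and none met the criterion. Acly also lost it without VE100 3 (-0.90). Without vehicle 3 the list counted 1 higher and 5 lower at VE50 and 1 higher and 10 lower at VE100. Of all probe sets, 7.52% and 9.62% were then past the criterion in the lower direction. Mlxipl, which encodes ChREBP, differed from vehicle by 0.60 ± 0.68 at VE100 with overlapping groups.

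FOXO factors and FOXO1-responsive liver genes had 2 of 20 higher and 1 lower at VE50, and 5 higher and 2 lower at VE100, with medians of 0.17 and 0.26. In either direction that was 15% at VE50 and 35% at VE100, against 6.12% and 9.48% of all probe sets. Sesn1, among the genes higher at VE100, was dim on all arrays. Foxo1, the insulin-restrained factor described as a regulator of Arrdc3, read 7.72, 7.95 and 7.52 in vehicle, 8.25, 8.68 and 9.22 in VE50, and 8.37, 9.02 and 9.07 in VE100. It rose by 0.99 ± 0.30 and 1.09 ± 0.30 and was above the negative controls on 3 arrays. With the hybridization controls the VE100 difference was 1.03 and did not meet the criterion. Angptl4, an inhibitor of lipoprotein lipase, rose by 0.95 ± 0.37 and 1.14 ± 0.37. Its call was lost at VE50 without vehicle 3 (0.74), VE50 1 (0.73) or VE50 3 (0.91) and at VE100 without VE100 2 (0.75). Igfbp1, an insulin-repressed binding protein, rose by 2.76 ± 0.51 at VE100, with 2 arrays above the negative controls. The insulin receptor substrate gene Irs2, dim on all arrays, was lower by the fit at both doses (-1.20 ± 0.26 and -0.84 ± 0.26). Without vehicle 3 the list counted 2 higher and 4 lower at VE50 and 3 higher and 5 lower at VE100, and its medians turned to -0.18 and -0.13.

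Glucocorticoid receptor and induced genes had 4 of 18 higher and 0 lower at VE50 and 5 higher and 0 lower at VE100, with medians of 0.13 and 0.59. In either direction that was 22.2% at VE50 and 27.8% at VE100, against 6.12% and 9.48% of all probe sets. Fkbp5, a receptor co-chaperone, read 11.53, 10.90 and 11.28 in vehicle, 13.10, 12.26 and 13.07 in VE50, and 12.61, 14.44 and 13.74 in VE100, a rise of 1.57 ± 0.43 and 2.36 ± 0.43. The zinc finger gene Zbtb16 rose by 1.64 ± 0.49 and 2.54 ± 0.49 and was above the negative controls on 5 arrays. Cebpd, among the genes higher at both doses, and Hif3a, among those higher at VE100, were dim on all arrays. Tsc22d3, which encodes GILZ, rose by 1.16 ± 0.39 and 1.80 ± 0.39, and its call was lost at VE50 without VE50 3 (1.01) and with the hybridization controls at VE50 (0.99) and VE100 (1.52). Without vehicle 3 the medians of this list were -0.03 and -0.07, with 4 higher and 0 lower at VE50 and 3 higher and 1 lower at VE100.

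**Figure D4:**
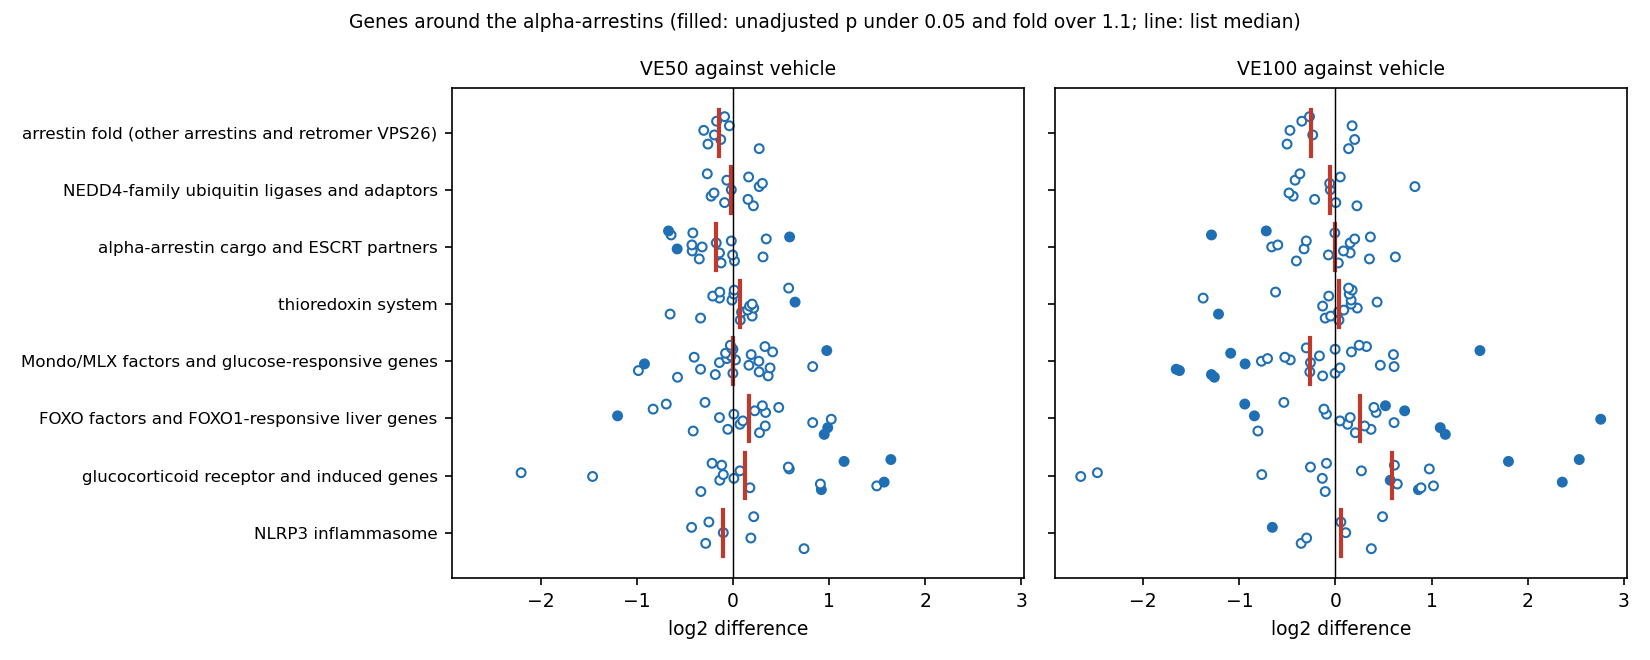
Log2 differences from vehicle for the genes of the 8 lists around the alpha-arrestins (x axis), at VE50 and VE100. Each point is a gene, filled where it met the unadjusted criterion, and red lines are list medians, which run from -0.17 to 0.17 at VE50 and from -0.26 to 0.59 at VE100.

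The genes whose signal ran most like that of the bright members were looked for among 17346 genes over the 9 arrays, and the values are descriptions without a test. For Arrdc3 they included Mbd4 (Pearson's r 0.93), Pyhin1 (0.92), Gml (0.91) and Trim68 (0.91). For Txnip they were Tmem198b (0.94), Prkg2 (0.92), Esx1 (0.91), Sftpc (0.90) and Agpat9 (0.89). All 9 of these genes were below the negative controls on every array. By deviations from the group means the nearest genes were Sncg, H2-M10.3 and Ifna1 for Arrdc3 (0.98, 0.98 and 0.97) and Lair1, Fbxo32 and Sftpc for Txnip (0.98, 0.98 and 0.97), again all dim. Without the 2 arrays farthest from the median, the r of the genes named by signal ran from 0.64 to 0.81 for Arrdc3 and from 0.80 to 0.92 for Txnip.

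Among the 2453 genes above the negative controls on all 9 arrays, a restriction chosen after the nearest genes were seen to be dim, the order differed. Arrdc3 was then nearest to Hpx, the heme-binding plasma protein (r 0.88), Cap1 (0.86), Lrg1 (0.85), the complement gene C4b (0.84) and Pnpla7 (0.83). Without the 2 arrays farthest from the Arrdc3 median these values were 0.56, 0.55, 0.84, 0.62 and 0.58, so that only Lrg1 stayed near its value. By deviations from the group means it was nearest to the haptoglobin gene Hp (0.94), the glycerol kinase gene Gk (0.86) and Tfdp1 (0.85). Txnip was nearest to Gpd2, the mitochondrial glycerol phosphate dehydrogenase (0.87), Retsat (0.85), Rps6kb2 (0.84), Secisbp2l (0.83) and Rgs16 (0.82). Without the 2 arrays farthest from the Txnip median these were 0.76, 0.74, 0.60, 0.93 and 0.87. Gpd2 was also its nearest gene by deviations (0.97), before Rps6kb2 (0.94) and Secisbp2l (0.91). The points of each correlation share the same 9 arrays and their normalization.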

How the data were processed

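RNA from ob/ob mouse liver was hybridized to Clariom S arrays, 3 each for vehicle, VE50 and VE100. The authors deposited log2 signal per probe set, made with SST-RMA in Transcriptome Analysis Console 4.0.2 per the labels' design text. This corrects background, normalizes between arrays and summarizes probes. The size of a difference depends on the source: for Arrdc3 at VE100 it was -2.0 in this signal and -1.78 in the deposited value table. A deposited value table holds log2 values of the same arrays with control probe sets, and RMA and Transcriptome Analysis Console 4 are listed for it in the submitters' processing notes. The authors' tables also hold deposited p-values, FDR values and a signed fold score of 100 mg/kg against vehicle. Genome build and scan dates are not given in the sources used here, and the study's detection filter was not used here.

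All 22206 probe sets on the 9 arrays were modelled by group with limma 3.58.1 (lmFit, eBayes) in R 4.3.3, with two-sided p-values adjusted by Benjamini-Hochberg over all probe sets, beside the study's criterion of p under 0.05 and a fold over 1.1. The fit was tested on simulated data. Background was the 95th percentile of the negative controls in the value table. The number of arrays and their spread limit precision. The members and lists were chosen with earlier results of these data known. List genes were named by smallest p: up to 3 past the criterion in the direction of the list median and 1 opposite, or the 1 with the smallest p where none passed. For likeness, the 5 genes with the highest r and the 3 with the highest r of deviations were named; 1 of them is not reported here. Alternatives covered scaling, source table, dim probe sets, array weights, replicate block, variance prior, groups fitted, quantile normalization, hybridization controls and leaving out each array.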

Additional observations from a re-analysis of the deposited data

How the results depend on the processing

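The Arrdc3 difference at VE50 lost the criterion in the deposited value table (-1.34), with array weights (-1.17), with quantile normalization (-1.35), with the hybridization controls as a covariate (-1.13) and with the replicate number as a block (-1.46). Leaving out each array gave -1.73 to -1.04, and the criterion was lost without vehicle 1, vehicle 3, VE50 1, VE50 2, VE50 3 or VE100 1. At VE100 it was lost with the hybridization controls (-1.44), and leaving out arrays gave -2.61 to -1.21. VE100 less VE50 ran from -1.14 to 0.26 and reversed without VE100 3. The F-test p of Arrdc3 over the 3 groups, 0.0295 in limma as reported, was 0.0688 with array weights, 0.0560 with quantile normalization, 0.443 with the hybridization controls, and 0.00747 to 0.0805 without single arrays. The Txnip difference at VE50 was -0.31 with array weights and 1.65 with the hybridization controls, and -0.41 to 0.64 without single arrays. At VE100 it was 2.72 with the hybridization controls and -0.72 to 0.82 without single arrays, and between the doses -0.82 to 0.71. Its F-test p was 0.0482 with the hybridization controls and 0.438 to 0.979 without single arrays. The count of members past the criterion at VE50 was 0 in the value table, with array weights, with the replicate block and with quantile normalization, and 0 to 1 without single arrays. With the hybridization controls it was 1, Txnip in place of Arrdc3, at each dose. At VE100 it was 3 in the value table and 1 without any single array. Pathway genes past the criterion were 22 at VE50 with array weights (10 to 26 without single arrays), 38 at VE100 with array weights and 14 with the hybridization controls (18 to 36), and between the doses 4 in the value table, 12 with array weights and 11 with the 2 groups alone (5 to 13). Apart from the comparisons with vehicle without vehicle 3, no share of all probe sets is given for these settings, so the counts show nothing particular to the lists. Of 31 named list values, 11 kept their side of the criterion and their direction under every alternative run and 3 reversed under any: Arr3 at VE50 with array weights (-0.058, and -0.062 to 0.58 without single arrays), and at VE100 Msra (0.15) and Tsg101 (0.072) with the hybridization controls. The cause of these shifts was not tested.

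Arrays with the same number in different groups had correlations of their deviations from the group means between -0.24 and 0.21, so the numbers were not taken as pairs; with the replicate block the Txnip difference at VE100 stayed at 0.12 while its SE went from 0.75 to 0.44. The planned use of other probe sets of a member was not run, since each has 1. The negative controls limit what can be said of Arrdc4, Arrdc2 and Arrdc1.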
